A study of Mus musculus with 6 samples.

Results

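A panel of 10 genes of the fat cells of bone marrow was followed in RNA from mouse femur: Adipoq, Fabp4, Plin1, Plin4, Cfd, Lpl, Cidec, Pparg, Lep and Retn. They were chosen by gene name out of 55421 genes with a row in the deposited count table. All 10 members had a row, and 9 of them passed the filter on low counts; Plin4 did not. Of the 6 libraries, 3 are labelled phlebotomy (removal of blood) and 3 control, and all come from WT C57BL/6 mice aged 12 weeks. Total RNA was made from bone in which osteocytes, the cells buried in bone mineral, had been enriched, and the series asks how their transcriptome changes after haemorrhage. How much blood was removed, and when before collection, is not given in the sources used here, and nothing in the labels says whether a library holds RNA of 1 animal or of several.

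Marrow adipocytes are fat-storing cells that arise from stromal progenitors of the marrow, which in the mouse also express leptin receptor. PPARgamma, the nuclear receptor encoded by Pparg, drives their differentiation and works together with C/EBP transcription factors. The mature cell holds its triglyceride in a droplet coated by perilipins, takes up fatty acids released by lipoprotein lipase, and secretes adipokines such as adiponectin. Several of the members are not private to fat cells: Fabp4 is also made by capillary endothelium and macrophages, Lpl and Pparg by macrophages, and Adipoq in the mouse by stromal cells of the marrow that hold no large droplet.

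The members split into an abundant and a scarce set, and none of them passed the test between phlebotomy and control. Fabp4, Adipoq, Cfd, Lpl and Pparg were well measured in every library, whereas the droplet coat genes Plin1, Plin4 and Cidec and the adipokine Lep had at most 47 counts in a library. Of the 9 members tested, 0 passed an adjusted p of 0.05 in edgeR's quasi-likelihood test with Benjamini-Hochberg adjustment, against 3 of 18838 genes tested, or 0.0159%. The smallest adjusted p of a member was 0.288, for Lpl, which encodes lipoprotein lipase and was the member whose libraries did not overlap between the groups. The log2 fold change (phlebotomy over control) lay below 0 for 6 members and above 0 for 3. Among all genes tested, 50.2% lay below 0.

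The promoters of 3 members are printed to show what the abundant Adipoq and the scarce Plin1 and Lep carry around their start sites. Each is the RefSeq window on build GRCm38.p6 from 250 bases before to 50 bases after the start, read 5′ to 3′ on the gene's strand, and capitals mark matches to the motifs searched on both strands. Adipoq lies at chr16:23146286-23146585 on the plus strand, Plin1 at chr7:79732727-79733026 on the minus strand and Lep at chr6:29059971-29060270 on the plus strand.
Adipoq: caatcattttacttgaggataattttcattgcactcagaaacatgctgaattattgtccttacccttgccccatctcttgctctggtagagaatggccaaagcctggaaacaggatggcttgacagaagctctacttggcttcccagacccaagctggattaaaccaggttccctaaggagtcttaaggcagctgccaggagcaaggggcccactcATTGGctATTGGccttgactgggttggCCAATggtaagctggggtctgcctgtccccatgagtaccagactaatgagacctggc
Plin1: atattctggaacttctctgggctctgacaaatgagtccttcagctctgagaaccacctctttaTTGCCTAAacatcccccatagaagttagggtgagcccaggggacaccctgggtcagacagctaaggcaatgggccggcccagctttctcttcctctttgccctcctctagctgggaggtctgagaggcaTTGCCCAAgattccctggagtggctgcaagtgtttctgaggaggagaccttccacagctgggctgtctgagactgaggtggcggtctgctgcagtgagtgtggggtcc
Lep: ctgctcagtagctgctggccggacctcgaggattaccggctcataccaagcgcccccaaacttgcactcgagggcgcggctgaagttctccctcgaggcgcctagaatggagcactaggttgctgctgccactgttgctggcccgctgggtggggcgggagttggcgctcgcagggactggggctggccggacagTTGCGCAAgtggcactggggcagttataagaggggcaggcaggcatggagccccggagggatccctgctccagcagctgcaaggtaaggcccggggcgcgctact

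The motifs searched were TATAAA, the core of a TATA box, CCAAT, the C/EBP-type site TTGCNNAA and AGGTCA, the nuclear receptor half-site; CCAAT and TTGCNNAA can share bases, and each was counted on its own. The Adipoq window held 3 copies of CCAAT, starting 34, 27 and 7 bases before the start, and the Plin1 window 2 copies of TTGCNNAA, 187 and 58 bases before it. The Lep window held 1 copy of TTGCNNAA, 55 bases before the start. Windows were found for 8 members, 11 in all, and TTGCNNAA occurred in 4 of the 11, against 10.8% of 32851 promoter windows of the same length. CCAAT occurred in 4 of 11 member windows and in 37.4% of all windows, AGGTCA in 2 of 11 and in 16.3%, and TATAAA in 1 of 11 and in 13.6%. Both AGGTCA matches lay in windows of Pparg itself, and the Cfd and Retn windows held none of the 4 motifs. A match describes letters and shows no binding.

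The libraries held 14853290 to 15866385 gene counts after phlebotomy and 11219243 to 19015588 in control, so that 3 counts correspond to 0.158 to 0.267 CPM (counts relative to library size). Osteocyte and osteoblast markers were high in all 6 libraries, with Dmp1, an osteocyte matrix protein, at 11445 to 22234 CPM after phlebotomy and 18771 to 43051 CPM in control. The summed osteocyte markers ran from 14473 to 26056 CPM after phlebotomy and from 23652 to 50752 CPM in control. The 12 neutrophil markers summed to 27879 to 43697 CPM after phlebotomy and 20482.5 to 49012 CPM in control. This neutrophil sum was above the osteocyte sum in every phlebotomy library and in control 4. The 12 erythroid markers summed to 9963 to 12485 CPM after phlebotomy and 5585 to 12462 CPM in control. Macrophage and endothelial markers were present too. The 12 skeletal muscle markers summed to 11.1 to 14.9 CPM after phlebotomy and 6.41 to 10.8 CPM in control. These low sums were apart only by 11.1 against 10.8 CPM, and 5 of the 12 genes passed the filter on low counts. Phlebotomy 2 stood apart from the other phlebotomy libraries on the leading principal component, which carried 41.8% of the variance, with a score of 7.80 against -54.9 and -40.2, and the controls between 16.6 and 51.4. In bulk RNA, fewer cells of a type and less RNA per cell cannot be told apart.

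Adipoq encodes adiponectin, the adipocyte hormone that raises insulin sensitivity. It lies on chromosome 16, 23146536 to 23158028 on GRCm38. Its level was 36.2, 26.9 and 21.1 CPM in phlebotomy 1, 2 and 4, against 41.1, 34.5 and 26.4 CPM in control 1, 2 and 4, scaled by TMM. Library 1 was the highest and library 4 the lowest of each group, and the groups overlapped. The means were 28.1 ± 7.63 CPM after phlebotomy and 34.0 ± 7.37 CPM in control (SD, n = 3 each). Adipoq had a log2 fold change of -0.27 ± 0.22 (SE), the 95% interval ran from -0.75 to 0.21, and the adjusted p in edgeR was 0.556.

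**Figure D1:**
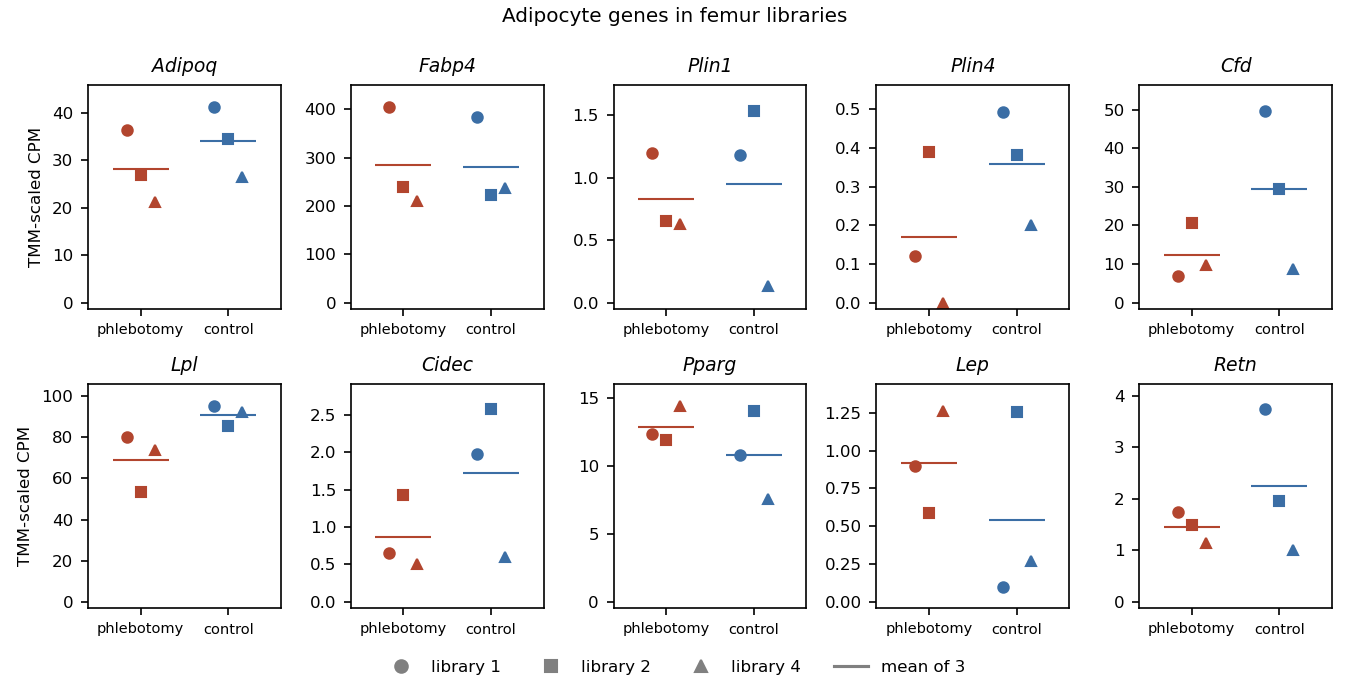
TMM-scaled CPM of each of the 10 genes (vertical axis, its own scale per panel) in the 3 phlebotomy libraries (left) and the 3 control libraries (right), where points are libraries marked by column number and bars are means. The groups overlap in every panel except that of Lpl, where phlebotomy libraries reach 79.8 CPM and control libraries start at 85.4 CPM.

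Cfd encodes complement factor D (adipsin), the serine protease that cleaves factor B in the alternative complement pathway and is secreted by fat cells. The gene spans bases 79890853 to 79892655 of chromosome 10. Cfd stood at 6.83, 20.7 and 9.67 CPM in phlebotomy 1, 2 and 4, against 49.7, 29.5 and 8.80 CPM in control 1, 2 and 4. Control 1 and control 2 held the highest levels, while control 4 lay within the range of the phlebotomy libraries. Means were 12.4 ± 7.30 CPM after phlebotomy and 29.3 ± 20.5 CPM in control (SD, n = 3 each). At -1.24 ± 0.77 (SE), it had the lowest log2 fold change of the 9 members, but the 95% interval ran from -3.25 to 0.77, and the edgeR adjusted p was 0.485. Without control 1 it was -0.64, above that of Cidec at -0.90 in the same fit, and without phlebotomy 2 it was -1.86.

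Retn encodes resistin, which mouse adipocytes secrete and which opposes insulin action. It lies on chromosome 8, 3655770 to 3660110. The libraries held 29, 23 and 18 counts in phlebotomy 1, 2 and 4, against 38, 36 and 15 counts in control 1, 2 and 4, or 1.74, 1.50 and 1.14 CPM against 3.75, 1.97 and 1.01 CPM. Control 1 was the highest and control 4 the lowest. Retn had a log2 fold change of -0.58 ± 0.45 (SE; adjusted p in edgeR 0.528), which became -0.055 without control 1 and -0.97 without control 4. Its relative Retnlg, a neutrophil gene of the resistin family, was far more abundant and stood at 2078, 2070 and 1437 CPM after phlebotomy, against 1268, 1537 and 2636 CPM in control.

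Lep encodes leptin, the satiety hormone of fat cells (chromosome 6, 29060220 to 29073877). It was counted 15, 9 and 20 times in phlebotomy 1, 2 and 4, against 1, 23 and 4 times in control 1, 2 and 4. The corresponding levels were 0.898, 0.586 and 1.26 CPM after phlebotomy and 0.0986, 1.26 and 0.269 CPM in control. The single count in control 1 has an exact 95% counting interval of 0.00226 to 0.497 CPM before TMM scaling. Control 2 alone matched the highest phlebotomy library. Lep had a log2 fold change of 0.62 ± 0.66 (SE; adjusted p in edgeR 0.653). It became 2.15 without control 2, 0.21 without control 1, 0.26 without control 4 and 0.33 without phlebotomy 4.

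Lpl encodes lipoprotein lipase, which frees fatty acids from circulating triglyceride (chromosome 8, 68880491 to 68907448). Its level was 79.8, 53.2 and 73.9 CPM in phlebotomy 1, 2 and 4, against 95.1, 85.4 and 92.1 CPM in control 1, 2 and 4. All 3 phlebotomy libraries lay below all 3 control libraries, a pattern that 11.2% of all genes tested had in the same direction. The means were 69.0 ± 14.0 CPM after phlebotomy and 90.8 ± 4.94 CPM in control (SD, n = 3 each). On the log2 scale Lpl differed by -0.40 ± 0.18 (SE), a ratio of 0.760 with a 95% interval of 0.583 to 0.989. In edgeR its p was 0.0423 before and 0.288 after Benjamini-Hochberg adjustment. Of the 9 members, Lpl alone had an unadjusted p under 0.05, and 9.42% of all genes tested did so with a lower level and 7.01% with a higher level after phlebotomy. By DESeq2 the adjusted p of Lpl was 0.166. DESeq2 gave 5 members an adjusted p, and 0 of these 5 passed, against 3.01% of the genes with one; Plin1, Cidec, Lep and Retn got none. Phlebotomy 2 had the lowest Lpl level, and without that library the edgeR log2 fold change was -0.28 with an adjusted p of 0.312. Without it 4.74% of all genes passed in edgeR and 0 members did.

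Fabp4 encodes the fatty acid carrier of the adipocyte cytosol (chromosome 3, 10204088 to 10208576). Its level was 404, 239.9 and 209.6 CPM in phlebotomy 1, 2 and 4, against 385, 223 and 236 CPM in control 1, 2 and 4. Library 1 was the highest in both groups, and the other libraries lay within 209.6 to 239.9 CPM. The means, 285 ± 105 CPM after phlebotomy and 281 ± 90.1 CPM in control (SD, n = 3 each), differed by less than the spread between libraries. Its log2 fold change of 0.02 ± 0.26 (SE; adjusted p in edgeR 0.980) had a 95% interval from -0.55 to 0.58, which takes in ratios of phlebotomy to control from 0.685 to 1.50.

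The droplet genes had few counts in every library. Plin1 encodes perilipin 1, the coat protein that guards the large droplet against lipases (chromosome 7, 79720218 to 79732903). It had 20, 10 and 10 counts in phlebotomy 1, 2 and 4, against 12, 28 and 2 counts in control 1, 2 and 4, and its highest and lowest libraries were both controls. Its level was 1.20, 0.651 and 0.632 CPM after phlebotomy and 1.18, 1.53 and 0.134 CPM in control. For Plin1 the log2 fold change was -0.20 ± 0.63 (SE; adjusted p in edgeR 0.896).

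Cidec, which enlarges droplets by passing lipid between them (chromosome 6, 113424634 to 113435760), had 11, 22 and 8 counts in phlebotomy 1, 2 and 4, against 20, 47 and 9 counts in control 1, 2 and 4. This was 0.659, 1.43 and 0.506 CPM after phlebotomy and 1.97, 2.57 and 0.605 CPM in control. Control 4 again lay among the phlebotomy libraries. Cidec had a log2 fold change of -0.99 ± 0.54 (SE), a 95% interval from -2.15 to 0.17 and an adjusted p of 0.377 in edgeR. Without phlebotomy 2 it was -1.59 with an adjusted p of 0.117, the smallest of any member in 147 member tests over all settings.

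Plin4, a perilipin of nascent droplets (chromosome 17, 56100591 to 56109803), had 2, 6 and 0 counts in phlebotomy 1, 2 and 4, against 5, 7 and 3 counts in control 1, 2 and 4. It was left out of the test, and the 0 counts in phlebotomy 4 allow up to 0.248 CPM by the exact 95% interval (3 counts are 0.202 CPM), before TMM scaling and for counting error only. Its exons share 17 bases with Hdgfl2 on the opposite strand, and the library kit does not mark strand; no other member shares exon bases with another gene.

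Pparg, the transcription factor gene (chromosome 6, 115360951 to 115490399), varied least of the members among the phlebotomy libraries, with a coefficient of variation of 10.2%. Its level was 12.4, 11.9 and 14.4 CPM in phlebotomy 1, 2 and 4, against 10.8, 14.1 and 7.59 CPM in control 1, 2 and 4. Phlebotomy 4 was the highest and control 4 the lowest library. The means were 12.9 ± 1.32 CPM after phlebotomy and 10.8 ± 3.25 CPM in control (SD, n = 3 each). Pparg had a log2 fold change of 0.25 ± 0.24 (SE), a 95% interval from -0.26 to 0.75 and an adjusted p of 0.617 in edgeR.

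**Figure D2:**
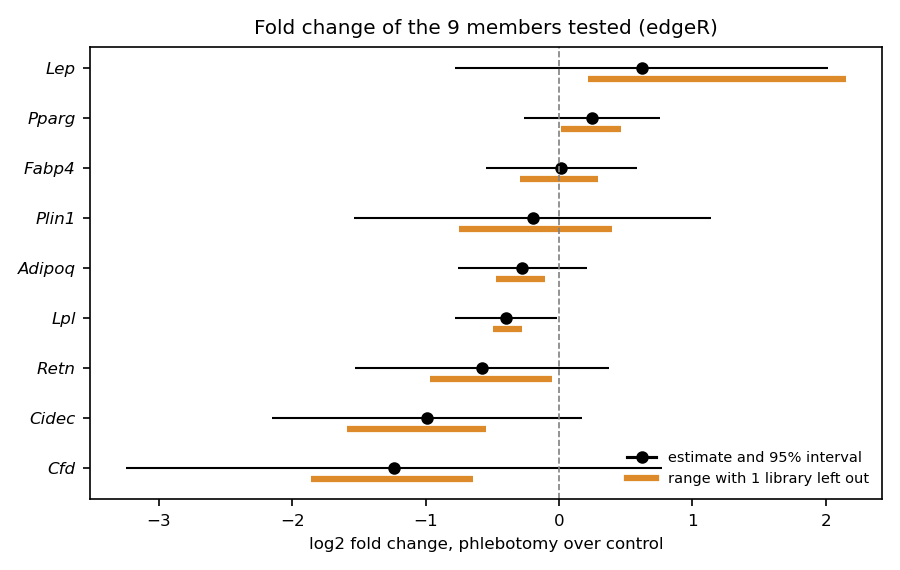
Log2 fold change, phlebotomy over control (horizontal axis), of the 9 members tested in edgeR, where points are estimates, black lines 95% intervals and orange bars the range of estimates with 1 library left out. Every black interval reaches past 0 except that of Lpl, whose upper end is -0.02, and the orange bars of Fabp4 and Plin1 lie on both sides of 0.

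To set the genes against each other, levels were divided by the length of the principal transcript. Fabp4 led with 316 ± 97.6 CPM per kilobase over the 6 libraries (mean ± SD, n = 6). Adipoq with 24.0 ± 5.77, Cfd with 22.6 ± 18.0 and Lpl with 19.4 ± 3.70 CPM per kilobase came next, and the ranges of these 3 overlapped. Pparg followed with 6.72 ± 1.41 CPM per kilobase, and its range was apart from those of Lpl and Retn but not from that of Cfd, which went down to 7.41 where Pparg reached 8.16. Retn averaged 1.62 CPM per kilobase, Cidec 0.750, Plin1 0.315, Lep 0.224 and Plin4 0.0460, each overlapping the next. Fabp4 lay apart from all other members, and Fabp4, Adipoq, Cfd, Lpl and Pparg all lay apart from Retn and the genes after it.

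**Figure D3:**
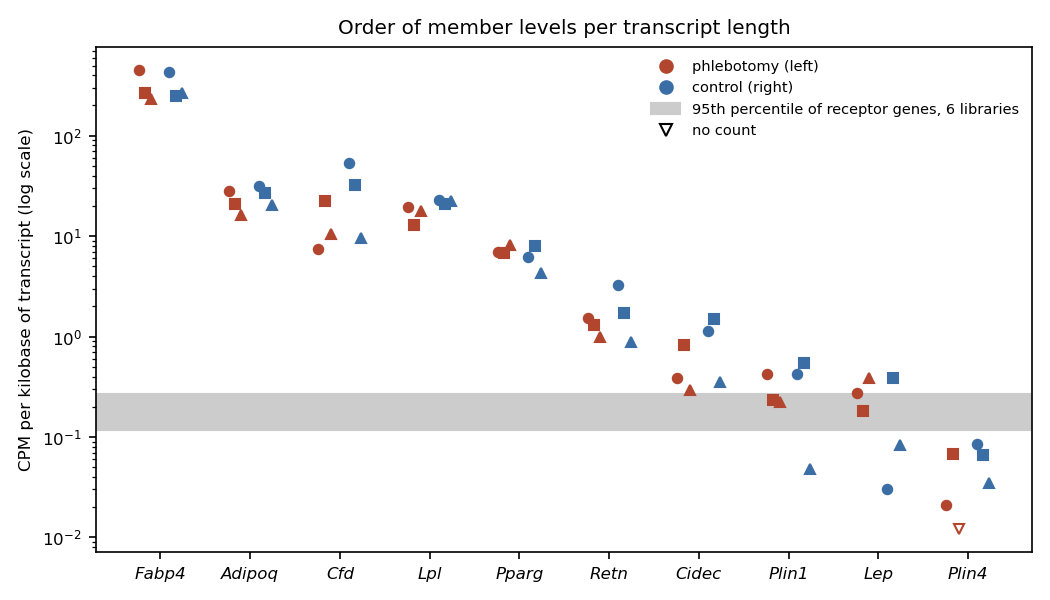
Level per kilobase of transcript (vertical axis, log scale, CPM per kilobase) of the 10 genes in order of their mean, with phlebotomy libraries to the left and control libraries to the right, marked by column number as circles (1), squares (2) and triangles (4). The grey band spans the 95th percentiles of olfactory and vomeronasal receptor genes in the 6 libraries, 0.117 to 0.267 CPM per kilobase, and Plin4 and part of the Lep and Plin1 points fall in or below it.

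A floor for reads without a known source in bone was taken from 940 olfactory and vomeronasal receptor genes, which serve smell. Their summed level was 178, 104 and 267 CPM in phlebotomy 1, 2 and 4, against 91.7, 98.1 and 86.2 CPM in control 1, 2 and 4, higher in every phlebotomy library than in any control library. Plin1 lay above 98.7%, 98.0% and 93.0% of these genes per kilobase in phlebotomy 1, 2 and 4, against 99.4%, 99.8% and 80.7% in control 1, 2 and 4. Lep lay above 97.1%, 96.8% and 97.8% of them after phlebotomy, against 71.0%, 99.5% and 91.5% in control. For Lep, the gene with the highest log2 fold change among the members, the receptor level moved in the same direction, and its part in the result was not tested. Plin4 lay above 46.3%, 87.3% and 0% of them after phlebotomy and above 90.6%, 88.0% and 75.4% in control, while Cidec passed 95.9% or more in all 6 libraries.

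Ratios between members within a library do not depend on the library scaling. Per kilobase, the level of Fabp4 was 16.1, 12.9 and 14.3 times that of Adipoq in phlebotomy 1, 2 and 4, against 13.5, 9.29 and 12.9 times in control 1, 2 and 4. Lpl stood at 0.692, 0.620 and 1.10 of Adipoq after phlebotomy and 0.726, 0.776 and 1.09 in control, and library 4 was the highest of each group. The ratio of Cfd to Adipoq was the most variable of these 3, at 0.264, 1.08 and 0.642 after phlebotomy and 1.69, 1.20 and 0.467 in control. Plin1, Plin4 and Cidec together reached 2.96%, 5.44% and 3.17% of the Adipoq level after phlebotomy and 5.19%, 7.87% and 2.12% in control. The groups overlapped in every one of these ratios.

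The members held 0.0354% to 0.0573% of the gene counts of a library, and Fabp4 made up 63.1% to 74.3% of their summed CPM after phlebotomy and 56.5% to 65.3% in control. The sum of the 10 genes was 544, 357 and 332 CPM in phlebotomy 1, 2 and 4, against 589, 394 and 373 CPM in control 1, 2 and 4. Library 1 was again the highest of its group. Control 1 held the highest level of 5 of the members, and phlebotomy 4 the lowest of 4.

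The markers of other cell types that make members overlapped between the groups in their summed level. The 12 endothelial markers summed to 532 to 650.3 CPM after phlebotomy and 542 to 651 CPM in control; their median log2 fold change was -0.17, and 0 passed the adjusted p in edgeR, with 1 of them lower at an unadjusted p under 0.05. The 12 macrophage markers summed to 926 to 1421 CPM after phlebotomy and 1016 to 1073 CPM in control. Their median was 0.15, again with 0 passing, and 4 were higher and 2 lower at an unadjusted p under 0.05. Among all genes tested, 7.01% were higher and 9.42% lower at that p. No gene of either list was at 0 in all libraries. How much of the Fabp4, Lpl and Pparg signal these cells supplied was not tested.

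Members were also compared with each other by pattern, as the root mean square (RMS) difference of log2 CPM (pseudocount 0.5) centred on each gene's mean over the 6 libraries. The closest pairs were Adipoq and Fabp4 at 0.241, Adipoq and Retn at 0.274 and Adipoq and Lpl at 0.315, and the farthest pair was Cfd and Lep at 1.33. The other genes compared were 10645 tested genes with a mean of at least 5 CPM, leaving out unnamed genes and predicted or clone-type names (Gm or Rik). Among them, the nearest to Adipoq included Runx2os1 (0.0743), Gulp1 (0.0800), Enah (0.110) and Kmt2b (0.110). Adipoq's own spread, its difference from a gene that does not vary, was 0.320. The 0.315 of Adipoq and Lpl was close to that spread. How many of the 10645 genes lay as near to Adipoq as Fabp4 or Retn was not counted. The nearest to Fabp4 were the mitochondrial genes mt-Co2 (0.0817), mt-Atp6 (0.110), mt-Co3 (0.125) and mt-Rnr2 (0.130), and S100b (0.112), with an own spread of 0.382. Like Fabp4, mt-Co2 was highest in library 1 of each group, with 195, 123 and 115 CPM after phlebotomy and 176, 109.7 and 118 CPM in control.

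The genes that build and regulate fat cells were described as lists, each by its counts and its median beside all genes tested, whose median log2 fold change was -0.0028. List medians ran from -0.39 for the brakes on adipogenesis to 0.16 for brown and beige adipocyte genes. With all 6 libraries, the medians of the bone cell markers were below that of every list. Without phlebotomy 1 the osteoblast median was -0.29. That was above the medians of the member list (-0.49), the resistin family (-0.36) and the fatty acid uptake list (-0.30) in the same fit. The 12 osteocyte markers had a median of -0.67, with 11 below 0 and 9 of them lower at an unadjusted p under 0.05. The 12 osteoblast markers had a median of -0.55, with 12 below 0 and 5 lower at that p. The 12 erythroid markers had a median of 0.28, with 9 above 0 and 5 higher at that p. Among all genes tested, 9.42% were lower and 7.01% higher at that p. The part of bone and erythroid cells in the list values was not tested. None of the genes of the lists below passed the adjusted p in edgeR. The named genes are among those with the smallest unadjusted p in their list. Without phlebotomy 2, 10 of 129 listed genes tested passed in edgeR, or 7.75%, against 4.74% of all genes in that fit, each in either direction. All 10 were lower after phlebotomy, and none is a member: Srebf1, Rxra, Sox9, Klf2, Gata2, Lrp1, Vegfa, Irs2, Foxc1 and Csf1. What share of all genes passing in that fit was lower was not counted. Of 84 marker genes in the same fit, 16.7% passed, a larger share than that of the listed genes. Among them 8 osteoblast, 2 osteocyte and 1 endothelial markers passed lower, and 2 erythroid and 1 macrophage markers passed higher. In DESeq2, 9 of 104 listed genes with an adjusted p passed, against 378 of 12576 genes, or 3.01%, in either direction. These 9 were all lower: Srebf1, Sox9, Fasn, Scd1, Lrp1, Vegfa, Foxc1, Pdgfrb and Csf1. The 378 were not split by direction. Of 76 marker genes with an adjusted p in DESeq2, 5 passed lower and 3 higher.

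Of 14 genes of the droplet coat, 11 were tested, 5 above and 6 below 0, and their median was -0.08 (log2 fold change). Plin2, the perilipin of small droplets in many cell types, was far more abundant than Plin1, at 363, 289 and 238 CPM after phlebotomy and 284, 235 and 265 CPM in control. Fitm2, which partitions triglyceride into droplets, stood at 3.53, 6.19 and 5.50 CPM in phlebotomy 1, 2 and 4, against 11.0, 6.34 and 9.95 CPM in control 1, 2 and 4. Its groups did not overlap, and it differed by -0.84 ± 0.28 (log2 fold change ± SE; adjusted p in edgeR 0.204).

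Of 15 adipogenic transcription factors, 14 were tested and 12 lay below 0, with a median of -0.33. An unadjusted p under 0.05 was reached by 4 of the 14, all lower, against 9.42% of all genes tested. Pparg was not among these 4. Srebf1, the activator of fatty acid synthesis genes, had 31.9, 40.8 and 40.7 CPM in phlebotomy 1, 2 and 4, against 64.9, 58.3 and 59.3 CPM in control 1, 2 and 4. Every phlebotomy library was lower. Srebf1 differed by -0.69 ± 0.17 (log2 fold change ± SE), with adjusted p-values of 0.145 in edgeR and 0.0186 in DESeq2. Rxra, the partner of PPARgamma on DNA, had a log2 fold change of -0.69 ± 0.21 (SE), and Zfp423, a preadipocyte factor, -0.65 ± 0.27 (SE), and their adjusted p-values in edgeR were 0.179 and 0.263. The opposing list, the brakes on adipogenesis, lay on the same side: 6 of 9 tested were below 0, with a median of -0.39, among them Sox9 at -0.73 ± 0.20 and Klf2 at -0.64 ± 0.21 (log2 fold change ± SE), with adjusted p-values in DESeq2 of 0.0305 for Sox9 and 0.0879 for Klf2.

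Fatty acid and triglyceride synthesis had 11 of 14 tested genes below 0 and a median of -0.20. At an unadjusted p under 0.05, 3 of the 14 were lower, against 9.42% of all genes tested. Scd1, the desaturase that makes oleate, stood at 19.5, 33.4 and 34.4 CPM in phlebotomy 1, 2 and 4, against 107, 54.2 and 39.4 CPM in control 1, 2 and 4. Control 1 was the highest, and the groups did not overlap. Scd1 differed by -1.20 ± 0.36 (log2 fold change ± SE), with adjusted p-values of 0.200 in edgeR and 0.0133 in DESeq2. Fasn, fatty acid synthase, differed by -0.62 ± 0.18, with adjusted p-values of 0.176 in edgeR and 0.0493 in DESeq2. In lipolysis and glycerol release, 6 of 10 tested genes lay below 0, with a median of -0.08. Pnpla2, the lipase that starts triglyceride breakdown, had the smallest p there, at -0.46 ± 0.18 (log2 fold change ± SE; adjusted p in edgeR 0.244).

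Lpl belongs to a list of fatty acid uptake and lipoprotein lipase control, of which 9 of 14 tested genes lay below 0, with a median of -0.23. Besides Lpl, 4 genes had an unadjusted p under 0.05, all lower, against 9.42% of all genes tested. Lrp1, a receptor for lipoprotein remnants, differed by -0.69 ± 0.18 (log2 fold change ± SE), with adjusted p-values of 0.160 in edgeR and 0.0269 in DESeq2. Angptl4, an inhibitor of lipoprotein lipase, stood at 164, 239 and 172 CPM after phlebotomy and 297, 231 and 261 CPM in control, a log2 fold change of -0.46 ± 0.19 (SE). Acsl1, which activates fatty acids, was at -0.54 ± 0.22 and the fatty acid transporter Slc27a1 at -0.50 ± 0.22 (log2 fold change ± SE). The enzyme and its inhibitor thus had log2 fold changes of the same sign.

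Secreted adipose factors had 11 of 13 tested genes below 0 and a median of -0.21. Vegfa, the endothelial growth factor, had 508, 923 and 724 CPM in phlebotomy 1, 2 and 4, against 1697, 1367 and 847 CPM in control 1, 2 and 4, with overlap and adjusted p-values of 0.191 in edgeR and 0.0370 in DESeq2. Among 10 adipokine receptors and adaptors, 8 lay below 0, with a median of -0.13, and Irs2, an insulin receptor substrate, had the smallest p at a log2 fold change of -0.61 ± 0.21 (SE).

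The precursors of marrow fat cells were represented by 16 reticular and progenitor genes, all tested, of which 12 lay below 0, with a median of -0.15. Foxc1, a transcription factor of the reticular niche, had 43.4, 58.2 and 40.8 CPM in phlebotomy 1, 2 and 4, against 100.1, 74.6 and 65.3 CPM in control 1, 2 and 4. Its libraries did not overlap, and it differed by -0.75 ± 0.20 (log2 fold change ± SE), with adjusted p-values of 0.160 in edgeR and 0.0289 in DESeq2. Pdgfrb, a growth factor receptor of stromal cells, was at -0.67 ± 0.18, and Csf1, the macrophage growth factor, at -0.62 ± 0.17 (log2 fold change ± SE), each without overlap. In DESeq2 the adjusted p was 0.0213 for Pdgfrb and 0.0210 for Csf1.

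**Figure D4:**
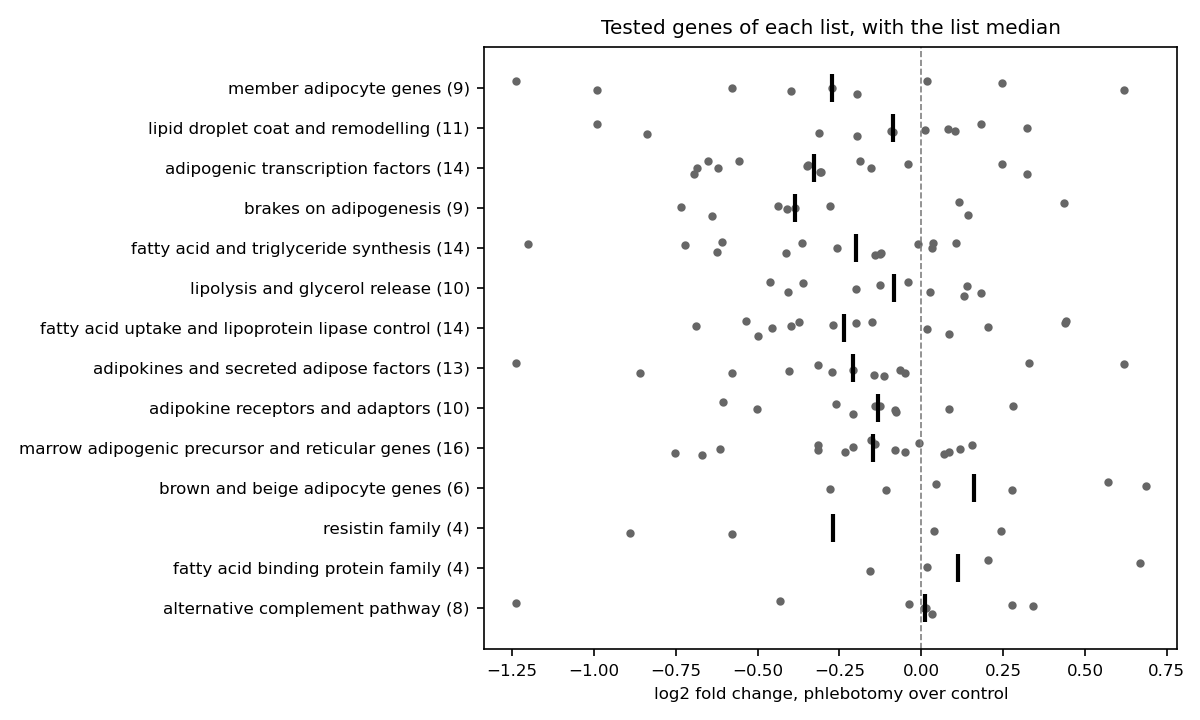
Log2 fold change, phlebotomy over control (horizontal axis), of every tested gene of 14 lists (rows, number tested in brackets), with points for genes and a vertical bar for the list median. Medians run from -0.39 for the brakes on adipogenesis to 0.16 for brown and beige adipocyte genes, and the spread of genes within a list is wider than the distance of its median from 0 in each row.

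Long transcripts tended to be lower after phlebotomy. Across 14122 genes, the log2 fold change had a Spearman rho of -0.241 with transcript length; genes are not independent replicates. The centred level of genes in a library had a rho of -0.339, -0.0457 and 0.00954 with length in phlebotomy 1, 2 and 4, against 0.228, 0.241 and 0.00359 in control 1, 2 and 4. Lpl, with a transcript of 4115 bases, is the longest of the well-measured members, and Fabp4, with 896 bases, the shortest of all 10. The part of length in the differences above was not tested.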

How the data were processed

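RNA was sequenced from 6 femur libraries. Nextera XT, a kit without strand marking, was used with 126 bp paired-end reads (HiSeq1500), per the labels' protocols. Builds GRCm38.p3 and mm10, STAR (2.5.2a and 2.7.3a), limma, edgeR and DESeq2 are listed without roles, per the submitters' processing notes. How reads were assigned to genes is not stated. Deposited by the authors were raw counts per gene, a filtered copy (0 counts differ) and a signal table whose columns are the filtered counts times a constant (TMM-scaled CPM, per the file's name). Of 55440 rows of counts, 19 carry transgene or vector names; these took 0.00278% to 0.0284% of counts and were left out.

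Column initials gave the groups: P was read as phlebotomy and N, by elimination, as control, and all comparisons rest on this reading. Column numbers (1, 2 and 4) do not match the titles, so columns were tied to groups only. Separate animals are not named in the labels, so a p-value reflects only the spread of these libraries, which may be technical. Over all genes tested, samples with the same number did not deviate together, so no pairing was used. Single genes differed: Adipoq and Fabp4 were highest in library 1 of each group, while Cfd was lowest in phlebotomy 1 and highest in control 1.

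Low genes were removed by filterByExpr (minimum count 10), and the rest were scaled by TMM and compared in edgeR 4.0.16 by quasi-likelihood test (R 4.3.3, robust, no covariates, two-sided, Benjamini-Hochberg adjustment over all 18838 genes, threshold 0.05). Standard errors come from the F statistic, and counting intervals are exact (Clopper-Pearson, 95%) and cover counting error only. The script was tested on simulated data. Positions and transcript lengths are from GENCODE M21 (GRCm38), which holds 99.7% of the IDs, and promoters from RefSeq. Alternatives were other scaling, other filters, DESeq2 1.42.0, limma 3.58.1 (voom, or trend on log2 of the deposited table plus a pseudocount, 0.5 or 1), a block by column number, and omitting single libraries. The genes named are the 10 members, up to 4 others per list by smallest unadjusted p, up to 3 per marker list by level, and the 5 nearest in pattern to Adipoq and Fabp4; a gene that this rule covers is not reported here. The members and lists were chosen with earlier results of these data known. Plots used matplotlib 3.10.9 (Python 3.11.15).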

Additional observations from a re-analysis of the deposited data

Results flagged for a closer look

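The rows of the count table that name transgene or vector sequences, which no comparison uses, held 4288 counts in phlebotomy 2, against 441 in phlebotomy 1 and 441 in phlebotomy 4 and 380 to 640 in the controls. In phlebotomy 2 the row named Neo held 2288 counts, tg_EGFP 920 and tg_DsRed 403, where the other 5 libraries held at most 12, 6 and 1. Leaving out phlebotomy 2 gave log2 fold changes of -1.86 for Cfd and -0.28 for Lpl, each on the same side of 0 as with all libraries, and 0 of the 9 members passed in edgeR with Benjamini-Hochberg adjustment.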

How the results depend on the processing

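The number of members past the threshold was 0 under every alternative run, and 124 alternative values of a member's log2 fold change kept their sign and none of them passed the threshold (DESeq2 gave 4 of these, of Plin1, Cidec, Lep and Retn, no adjusted p); another 11, all of Fabp4 or Plin1, changed sign. Fabp4 was at -0.038 with no filter on low counts, -0.07 over the genes of the deposited filtered table, -0.037 in DESeq2, -0.084 in limma-trend with either pseudocount, and between -0.29 and 0.29 with 1 library left out. Plin1 was at 0.28 in limma-voom and between -0.75 and 0.40 with 1 library left out. The replicate block gave Plin1 a value of 0.0036 and changed no call of a member; same-numbered libraries had correlations of -0.110, -0.108 and -0.0616. The number of genes past the threshold, 3 in the fit used, was 577 with no filter, 20 over the deposited filtered genes, 378 in DESeq2 and 0 in limma-voom, and 0 to 963 with 1 library left out (963 without phlebotomy 2, 0 without phlebotomy 1, 14 without control 2 and 7 without control 4).

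Without TMM scaling the median of all genes moved to 0.138 (log2), and the list medians were 0.065 for the droplet coat, -0.19 for adipogenic factors, -0.25 for brakes, -0.065 for synthesis, 0.047 for lipolysis, -0.10 for uptake, -0.069 for secreted factors, 0.0066 for receptors and -0.0012 for precursors. The median of all genes was 0.197 in DESeq2 and 0.181 with no filter. The lipolysis median was -0.16 over the deposited filtered genes, in limma-voom and in limma-trend (0.5), the uptake median -0.31 over the deposited filtered genes, and the muscle marker median 0.090 in limma-trend (1). With 1 library left out, list medians ranged as follows: -0.52 to -0.18 for adipogenic transcription factors, -0.65 to -0.21 for brakes on adipogenesis, -0.34 to -0.092 for fatty acid and triglyceride synthesis, -0.15 to -0.032 for lipolysis and glycerol release, -0.34 to -0.18 for fatty acid uptake and lipoprotein lipase control, -0.34 to -0.081 for adipokines and secreted adipose factors, -0.42 to -0.060 for endothelial markers and 0.22 to 0.56 for skeletal muscle markers. The cause was not tested. With 1 library left out, Adipoq ran from -0.47 to -0.11, Cidec from -1.59 to -0.55 and Pparg from 0.01 to 0.46. Plin1, Plin4, Cidec, Lep and Retn had under 100 counts per group. Within control, counting intervals were apart for all of these but Plin4. The interval of control 4 did not overlap that of control 1 or 2 for Plin1, of control 2 for Cidec or of control 1 for Retn. For Lep, the interval of control 2 did not overlap that of control 1 or control 4.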

Other observations

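Brown and beige adipocyte genes, the heat-producing programme of fat cells, were at low levels: 6 of 10 could be tested, Ucp1, the uncoupling protein that defines brown fat, had 33 counts over all libraries and was not tested, and the list's median log2 fold change was 0.16. Dio2, which activates thyroid hormone, stood at 6.23, 3.32 and 7.58 CPM in phlebotomy 1, 2 and 4, against 3.16, 4.21 and 3.23 CPM in control 1, 2 and 4, with an edgeR adjusted p of 0.296. In the fatty acid binding protein family, 4 of 9 genes were tested. Fabp5, the carrier of macrophages and skin, had 54.5, 41.7 and 43.2 CPM after phlebotomy, against 40.7, 39.4 and 40.9 CPM in control, with an edgeR adjusted p of 0.563. Its groups were apart only by 41.7 against 40.9 CPM, and the share of all genes apart in that direction was not counted.

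Cfd belongs to the alternative complement pathway, of which 8 of 9 genes were tested, 5 above and 3 below 0, with a median of 0.01. C3, the central complement protein, stood at 196, 240.1 and 189 CPM after phlebotomy and 149, 290.4 and 403 CPM in control, and control 4, which had the lowest Cfd level of its group, had the highest C3 level. In the resistin family 4 of 4 genes were tested, and Retnla, made by macrophages, had 1.44, 1.43 and 0.506 CPM after phlebotomy, against 1.87, 1.97 and 2.42 CPM in control, without overlap and with an edgeR adjusted p of 0.311.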
